A study of Mus musculus with 6 samples.

Results

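The genes described here are 32 antioxidant and glutathione genes of the mouse, taken as a named list of enzymes that make, recycle or use glutathione and thioredoxin, that remove peroxides and superoxide or that supply NADPH, together with the transcription factor Nrf2 and its inhibitor Keap1. All 32 were found by symbol in the deposited table, which lists 23966 other genes, and all 32 passed the filter on low values that left 12008 genes for testing. RNA was taken from LT-HSC, long-term haematopoietic stem cells, the rare bone marrow cells that rebuild all blood lineages after transplantation, sorted as LSK CD34-CD150+CD48-Flk2- cells. Mice of the C57BL/6 background that carried the ENU-induced Ms T-less allele of Itpkb, labelled IPTKB-/- and written Itpkb-/- here, were compared with wild-type littermates, with 3 libraries per genotype. Each library came from cells sorted out of the pooled marrow of 4 age-matched mice, whose age and sex the labels do not give. The allele was not described as limited to blood cells, so the cells and their marrow surroundings may both have carried it. Itpkb encodes a kinase that phosphorylates the soluble second messenger inositol trisphosphate, and the study asked how its loss alters the stem cell transcriptome.

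Glutathione is a small peptide that cells make from glutamate, cysteine and glycine, and it donates electrons to enzymes that reduce peroxides or that attach it to reactive molecules. Thioredoxin and the peroxiredoxins form a parallel system, and both systems are recharged with NADPH, much of it from the pentose phosphate pathway. Many of these genes are known targets of Nrf2, which binds antioxidant response elements in their promoters and which Keap1 holds at a low level in unstressed cells. LT-HSC are known to be kept mostly quiescent and to lose function when reactive oxygen species build up.

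The libraries held 4777870, 6559673 and 7470329 gene-assigned reads in Itpkb-/- cells and 4024203, 6597505 and 5241831 in wild-type cells. Values are the authors' normalized CPM (reads per gene scaled to library size), in which 1 read was worth 0.131 to 0.249 and the 3 reads taken as the detection floor 0.393 to 0.746. Itpkb itself stood at 10.2, 14.0 and 18.2 among Itpkb-/- libraries against 22.1, 23.6 and 25.1 among wild-type libraries. These did not overlap, and the difference was -0.73 (SE 0.24) on the log2 scale, with a limma adjusted p of 0.172, or 0.0541 with the replicate number as a block. An ENU-induced allele can leave the transcript in place, so this level does not check the genotype. Transcripts of the sort gate were present in all libraries, with Kit at 615 to 911, Ly6a at 108 to 162 and Slamf1, which encodes CD150, at 42.6 to 59.2, while Cd34 transcript stood at 172 to 220.2 although the sort took cells without the surface protein. Transcripts of the other surface proteins that the sort excluded were present too. Cd48 stood at 33.3, 30.8 and 7.08 in Itpkb-/- against 8.95, 13.6 and 4.65 in wild-type libraries (limma adjusted p = 0.328, or 0.0205 with the block), and Flt3, which encodes Flk2, at 25.9, 37.9 and 22.9 against 7.21, 31.5 and 15.3 (adjusted p = 0.364, or 0.0569 with the block), each higher in Itpkb-/- in all 3 same-numbered pairs. The summed level of 10 LT-HSC marker genes was 1588, 1220.0 and 1868 among Itpkb-/- libraries against 2823, 2249 and 2717 among wild-type libraries. Itpkb-/- replicate 2 stood apart in the summed level of 19 granulocyte and monocyte markers, none of them at 0 in all libraries. That sum was 7405, 19901 and 1313 in Itpkb-/- and 4551, 3323 and 1230.1 in wild-type libraries. Mpo, at 8728, was its largest part in Itpkb-/- replicate 2. Not every marker was highest there: Lcn2, Ngp, Mmp8 and Csf1r were highest in Itpkb-/- replicate 1 and Lyz2 in wild-type replicate 1. Sums of megakaryocyte markers were 1073 to 1948 in Itpkb-/- against 714 to 883 in wild-type libraries and of mast cell markers 365 to 563 against 366 to 386. The mast cell sum was mostly that of Srgn, at 353 to 530 against 347 to 363. Its other markers went both ways, with Fcer1a at 5.44 to 8.71 against 0.598 to 2.05 and Mcpt8 at 0 to 3.42 against 0.448 to 6.47. The erythroid sum was 906 to 1609 against 1274 to 1866, with Car2 its largest part, at 512 to 639 against 822 to 915. Tfrc, at 67.9 to 146 against 27.4 to 34.5, Rhag, at 17.0 to 48.0 against 7.96 to 10.9, and Epor, at 24.8 to 27.0 against 9.20 to 17.7, went the other way and were called higher (limma adjusted p = 0.0126, 0.0400 and 0.123). Car1, at 52.4 to 460 against 50.6 to 172, overlapped and was not called. The globin genes also overlapped and none was called, as in Hbb-bs at 7.73 to 53.4 against 17.8 to 130. Hbb-b2 and Hbb-bt had identical values, 31.3 to 80.4 against 21.2 to 98.0, and both count in the sum. B lymphoid sums were 33.2 to 44.4 in Itpkb-/- against 32.6 to 44.0 in wild-type libraries, endothelial and stromal sums 87.1 to 139.5 against 98.3 to 109.9, and macrophage and dendritic sums 16.5 to 53.3 against 14.2 to 17.6, with Pax5 and Lepr at 0 in every library. Vcam1 is in both of the last lists, at 1.31, 40.7 and 1.31 in Itpkb-/- and 0.995, 1.94 and 0.186 in wild-type libraries. In Itpkb-/- replicate 2 it made up most of the macrophage and dendritic sum and part of the endothelial and stromal sum. The T and NK sum, 99.3 to 291 against 72.6 to 119, was mostly that of 1 gene, Nkg7, at 86.6 to 278 against 55.7 to 106, with Cd3g and Cd8a at 0 in every library and Cd3e, Cd3d and Ncr1 at no more than 0.995.

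Most antioxidant genes did not pass the test for a difference between Itpkb-/- and wild-type LT-HSC. The enzymes that fell were Gsta4 and Gstt1, both glutathione S-transferases, and Srxn1, which repairs over-oxidised peroxiredoxins. Their Itpkb-/- means were 0.431, 0.449 and 0.468 times those of the wild type, and no gene of the list was called higher by limma without a block. With limma at the study's false discovery limit of 0.15, that is 0 of 32 higher and 3 of 32 lower, beside 2.27% of all tested genes higher and 3.24% lower. The other 29 were not called. The median log2 difference over the 32 genes was 0.03, with 18 of them positive, and over all tested genes it was 0.00 with 50.2% positive. In 18 of the 32 genes the log2 difference was smaller than 0.2 in size, and in 11 the 95% interval lay inside 0.5 in both directions. In 27 genes the libraries of the genotypes overlapped, while 2 (Gclc and Gpx4) were higher and 3 (Gsta4, Srxn1 and Txn2) lower in every Itpkb-/- library than in every wild-type library, beside 10.0% and 11.3% of all tested genes. Fewer cells of a type and less RNA per cell cannot be told apart in these bulk libraries.

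**Figure D1:**
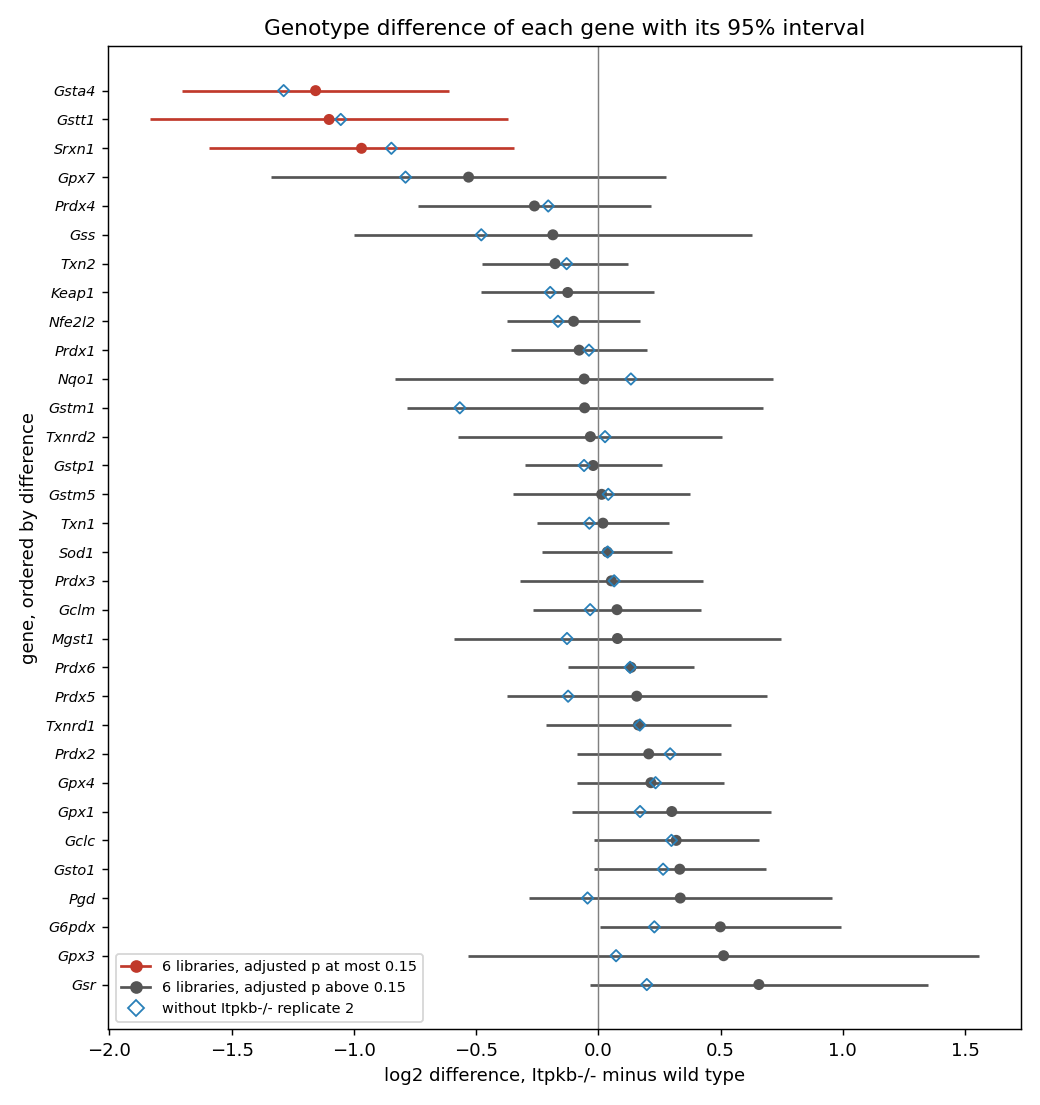
Difference between Itpkb-/- and wild-type LT-HSC for each of the 32 antioxidant genes, on the log2(normalized CPM + 1) scale, with 95% intervals from limma over 3 libraries per genotype; blue diamonds give the difference without Itpkb-/- replicate 2. Gsta4 (-1.16), Gstt1 (-1.10) and Srxn1 (-0.97) lie lowest, and Gsr (0.66) lies highest with its diamond at 0.20.

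The count depended on how the libraries were treated. Libraries with the same replicate number deviated together from their genotype means, so a fit with the number as a block was also made. It called 4 of the 32 genes higher (Gsr, G6pdx, Gpx1 and Gsto1) and the same 3 lower, but it also called 9.15% of all tested genes higher and 8.97% lower. On reads recovered from the table, edgeR's quasi-likelihood test called 0 higher and the same 3 lower, beside 2.45% and 3.58% of its genes. DESeq2's Wald test called 1 higher (Gsr) and 3 lower, beside 3.26% and 3.60%. At an unadjusted limma p under 0.05 there was 1 gene higher, G6pdx, and the same 3 lower, beside 7.13% and 8.34% of all tested genes. Leaving out 1 library at a time gave 0 to 4 called genes: 1 without Itpkb-/- replicate 1, 2 without Itpkb-/- replicate 2, 4 without Itpkb-/- replicate 3, then 1, 2 and 0 when wild-type replicate 1, 2 or 3 was the one left out.

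Gsta4 encodes an alpha-class glutathione S-transferase that conjugates 4-hydroxynonenal, a product of lipid peroxidation, and lies at chromosome 9, 78182774 to 78209349, plus strand (mm10). Its normalized CPM was 7.84, 12.7 and 11.4 among Itpkb-/- libraries against 28.1, 25.3 and 20.8 among wild-type libraries. The highest Itpkb-/- library stood well below the lowest wild-type library. The means were 10.7 ± 2.53 and 24.7 ± 3.65 (SD, n = 3 each), and the log2 difference was -1.16 (SE 0.25), with an adjusted p of 0.0462 by limma and 0.0343 by edgeR. It was the only one of the 3 that also met the study's limits on fold change and on a mean log2 CPM above 4. The call was lost when wild-type replicate 3 was left out (adjusted p = 0.178), and when both libraries numbered 2 were left out (adjusted p = 0.202).

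Gstt1, a theta-class glutathione S-transferase known for acting on small halogenated compounds, lies at chromosome 10, 75783813 to 75798584, minus strand. It was measured at 6.10, 8.39 and 14.2 in Itpkb-/- and at 22.4, 14.0 and 27.4 in wild-type libraries. Itpkb-/- replicate 3 lay just above wild-type replicate 2, so the genotypes overlapped in this gene although it was lower in Itpkb-/- in all 3 same-numbered pairs, with log2 differences of -1.72, -0.68 and -0.90. The log2 difference was -1.10 (SE 0.33), with an adjusted p of 0.139 by limma and 0.127 by edgeR. The call was lost without Itpkb-/- replicate 1 (adjusted p = 0.214), Itpkb-/- replicate 2 (0.300), wild-type replicate 1 (0.305) or wild-type replicate 3 (0.424), and with no filter on low values (0.222).

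Srxn1 encodes sulfiredoxin, the enzyme that uses ATP to return over-oxidised peroxiredoxins to service, and is a textbook Nrf2 target. It lies at chromosome 2, 152105516 to 152111376, plus strand. The Itpkb-/- libraries gave 4.79, 4.04 and 6.29 normalized CPM, from 22, 26 and 48 reads, and the wild type gave 9.20, 10.6 and 12.5, from 37, 71 and 67 reads. No Itpkb-/- library reached the lowest wild-type library. The log2 difference was -0.97 (SE 0.28), with an adjusted p of 0.130 by limma and 0.138 by edgeR. Here too the call was lost without Itpkb-/- replicate 1 (0.168), Itpkb-/- replicate 2 (0.327), wild-type replicate 1 (0.197), wild-type replicate 2 (0.243) or wild-type replicate 3 (0.398), and with no filter on low values (0.216). The log2 difference itself stayed between -1.11 and -0.85 with 1 library left out, so no single library carried it. Gsta4, Gstt1 and Srxn1 shared no stretch of 50 bases with the transcript of another annotated gene. The summed LT-HSC markers were lower in all 3 Itpkb-/- libraries as well, as given above, and their part in these differences was not tested.

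**Figure D2:**
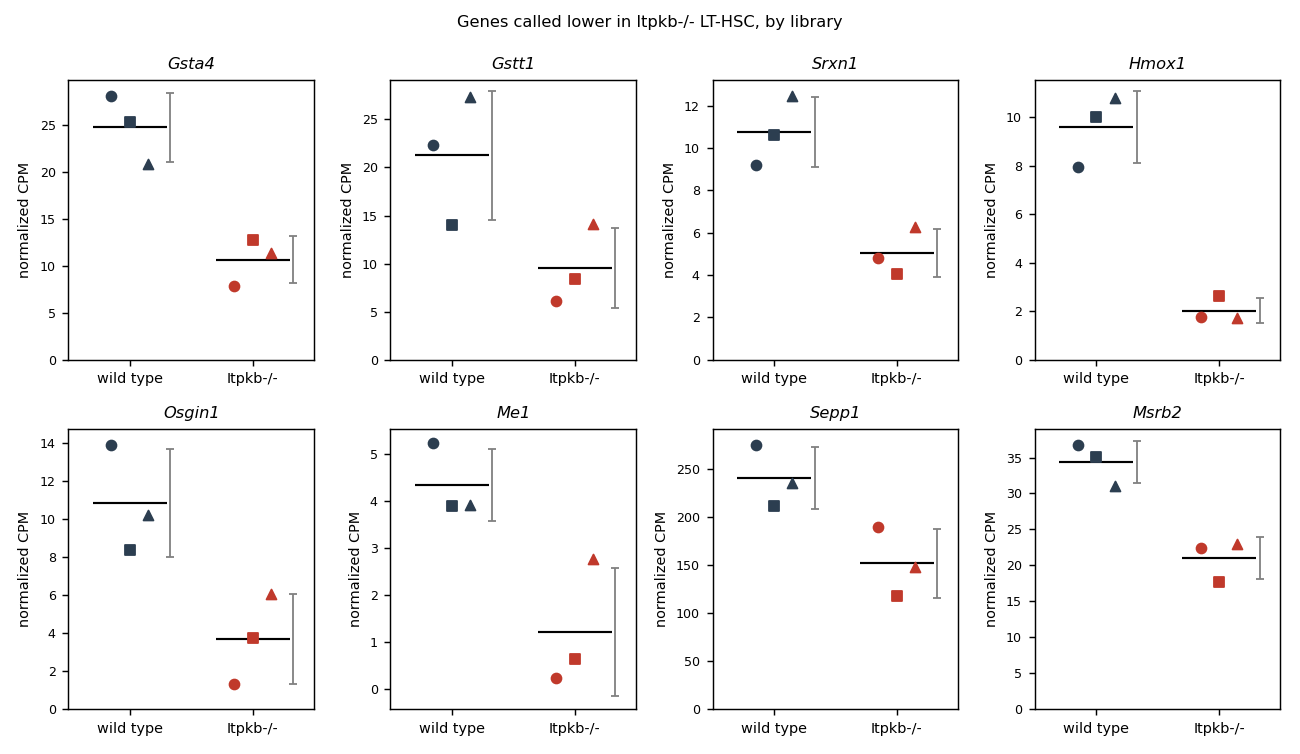
Normalized CPM of Gsta4, Gstt1 and Srxn1 and of Hmox1, Osgin1, Me1, Sepp1 and Msrb2, other pathway genes that fell in Itpkb-/- LT-HSC, in each of the 3 libraries per genotype; circles, squares and triangles mark replicates 1, 2 and 3, lines the mean and grey bars the SD. The genotypes are separated in all panels except Gstt1, where Itpkb-/- replicate 3 (14.2) meets wild-type replicate 2 (14.0).

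The promoters show which of these genes carry the letters of an antioxidant response element near their start. RefSeq promoters on GRCm38.p6, from 250 bases before to 50 after the start, were at hand for 28 of the 32 genes. The core of the antioxidant response element was searched as TGACNNNGC on both strands, and the AP-1 element, which overlaps it in some promoters, as TGANTCA, which reads the same on both. The antioxidant response core was found for 10 of the 28 genes (35.7%), beside 14.0% of all 27025 genes with such a promoter, and the AP-1 letters for 4 (14.3%), beside 8.97% of all. The 10 were Nfe2l2, Gclm, Gstm5, Mgst1, Txnrd1, Prdx1, Srxn1, Sod1, G6pdx and Pgd, so of the 2 lower genes that have a promoter in the table Srxn1 holds the core as searched and Gstt1 does not. Promoters of 5 genes are printed to show these letters side by side, those of the 2 lower antioxidant genes, of Me1, an NADPH-producing enzyme that fell as well, and of Txnrd1 and Prdx1, which hold the core and were not called. Capitals mark the letters matched by either motif, and positions count from the first transcribed base as 0. Txnrd1 has 3 starts in the table and Me1 has 2, and the start shown for each is the only one that holds the core. They are Srxn1 (chr2:152105274-152105573, plus strand), Gstt1 (chr10:75797682-75797981, minus strand), Me1 (chr9:86695865-86696164, minus strand), Txnrd1 (chr10:82858956-82859255, plus strand) and Prdx1 (chr4:116685349-116685648, plus strand).
Srxn1: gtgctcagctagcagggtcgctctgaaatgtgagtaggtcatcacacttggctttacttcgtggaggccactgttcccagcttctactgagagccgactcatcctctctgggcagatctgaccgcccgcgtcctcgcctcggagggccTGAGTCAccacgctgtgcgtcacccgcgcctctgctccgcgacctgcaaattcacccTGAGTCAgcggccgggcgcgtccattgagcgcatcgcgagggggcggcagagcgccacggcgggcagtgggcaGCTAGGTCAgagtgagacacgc
Gstt1: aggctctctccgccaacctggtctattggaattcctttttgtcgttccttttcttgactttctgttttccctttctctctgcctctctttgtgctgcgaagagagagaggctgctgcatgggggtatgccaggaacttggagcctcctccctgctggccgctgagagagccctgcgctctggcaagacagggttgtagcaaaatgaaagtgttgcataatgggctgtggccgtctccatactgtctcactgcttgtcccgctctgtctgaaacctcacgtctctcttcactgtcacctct
Me1: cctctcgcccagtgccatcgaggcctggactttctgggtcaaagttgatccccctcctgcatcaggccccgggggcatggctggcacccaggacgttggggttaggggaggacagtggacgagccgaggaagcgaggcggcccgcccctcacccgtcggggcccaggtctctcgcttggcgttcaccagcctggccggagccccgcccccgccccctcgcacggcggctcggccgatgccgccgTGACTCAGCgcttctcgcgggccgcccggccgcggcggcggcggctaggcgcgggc
Txnrd1: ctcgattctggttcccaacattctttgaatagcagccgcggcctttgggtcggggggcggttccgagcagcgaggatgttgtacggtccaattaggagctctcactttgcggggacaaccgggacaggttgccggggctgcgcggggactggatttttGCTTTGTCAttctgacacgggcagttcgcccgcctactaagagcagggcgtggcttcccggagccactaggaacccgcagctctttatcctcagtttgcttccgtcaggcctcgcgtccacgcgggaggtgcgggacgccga
Prdx1: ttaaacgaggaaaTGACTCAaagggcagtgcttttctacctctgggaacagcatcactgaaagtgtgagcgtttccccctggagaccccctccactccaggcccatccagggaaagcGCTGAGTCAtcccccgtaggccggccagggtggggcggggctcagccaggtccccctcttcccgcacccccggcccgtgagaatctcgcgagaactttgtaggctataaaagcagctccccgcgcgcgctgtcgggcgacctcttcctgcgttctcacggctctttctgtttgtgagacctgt
In the Srxn1 promoter the AP-1 letters start at -102 and -45 and a core on the minus strand starts at 28, within the transcribed part. The Txnrd1 core lies on the minus strand from -92. The Me1 and Prdx1 promoters hold the same 9 letters, TGACTCAGC, on the plus strand from -6 in Me1 and on the minus strand from -133 in Prdx1, each overlapping an AP-1 match. A match is a description of the letters and does not show that Nrf2 binds there. A core with TGAG in place of TGAC was not searched, and the printed Srxn1 and Gstt1 promoters both hold such letters. The contrast between these 2 genes therefore holds for the letters searched only.

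The regulators of the pathway did not pass the test. Nfe2l2, which encodes Nrf2, stood at 192 ± 16.8 normalized CPM for Itpkb-/- and 206 ± 12.0 in wild-type libraries (SD, n = 3 each), a log2 difference of -0.10 with a 95% interval of -0.37 to 0.17. Keap1, the adaptor that marks Nrf2 for degradation, stood at 48.2 ± 4.80 and 52.7 ± 5.60, a log2 difference of -0.13 with an interval of -0.48 to 0.23. Nrf2 is controlled mostly at the level of its protein, which these libraries do not show.

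In glutathione synthesis, Gclc, the catalytic subunit of the rate-limiting glutamate-cysteine ligase, was higher in each Itpkb-/- library, at 51.4, 54.2 and 52.7, than in any wild-type library, at 38.5, 46.0 and 42.1. Its log2 difference of 0.32 (SE 0.15) did not pass the test (adjusted p = 0.353 by limma and 0.202 with the block). The regulatory subunit Gclm, at 60.9 ± 8.85 in Itpkb-/- and 57.3 ± 2.76 in wild-type libraries, and glutathione synthetase Gss, at 23.0 ± 11.7 and 23.6 ± 3.98, had overlapping libraries. Gss showed its widest spread in Itpkb-/- cells, where replicate 1 was measured at 9.58 and the others at 31.2 and 28.0. Gsr, the reductase that turns oxidised glutathione back with NADPH, was measured at 66.2, 159.7 and 56.1 in Itpkb-/- and 55.7, 57.4 and 46.5 in wild-type libraries. Itpkb-/- replicate 2 stood far above all other libraries, replicate 1 also lay above every wild-type library and replicate 3 lay among them. All 3 same-numbered pairs were higher in Itpkb-/-, with log2 differences of 0.25, 1.46 and 0.26. The log2 difference between genotypes was 0.66 (SE 0.31, adjusted p = 0.349) with Itpkb-/- replicate 2 and 0.20 without it. With the block the adjusted p was 0.0496, and by DESeq2 it was 0.125.

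Of the glutathione peroxidases, Gpx1, the main cytosolic enzyme for hydrogen peroxide, was by far the most abundant, at 2131 ± 475 normalized CPM for Itpkb-/- and 1712 ± 267 in wild-type libraries (SD, n = 3 each). Its log2 difference of 0.30 did not pass the test without the block (adjusted p = 0.481), and with it the adjusted p was 0.0662. Gpx4, which reduces lipid peroxides in membranes, was measured at 110.2, 102 and 102 in Itpkb-/- and 92.5, 98.9 and 80.0 in wild-type libraries. These did not overlap, but the log2 difference of 0.22 gave an adjusted p of 0.497, and 61.7% of the 50-base stretches of its transcript also occur in the pseudogene Gpx4-ps2, so its level is uncertain. The secreted Gpx3 was measured at 3.70, 7.46 and 1.44 in Itpkb-/- against 3.48, 2.24 and 1.30 in wild-type libraries. It was low, overlapped between genotypes and was highest in Itpkb-/- replicate 2, with a log2 difference of 0.51 (adjusted p = 0.665) that became 0.07 without that library. Gpx7, an enzyme of the endoplasmic reticulum, was measured at 2.40, 5.90 and 3.80 against 4.72, 5.08 and 8.75, also with overlap, and its log2 difference was -0.53 (adjusted p = 0.542).

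Besides Gsta4 and Gstt1, 5 other glutathione S-transferases were measured, and none was called by limma without the block. Gstm1, a mu-class enzyme, had the widest range of them, with 169, 502 and 177 in Itpkb-/- and 257, 231 and 284 in wild-type libraries. Itpkb-/- replicates 1 and 3 lay below and replicate 2 above every wild-type library, and the log2 difference of -0.06 became -0.57 (adjusted p = 0.130) without Itpkb-/- replicate 2. Gstm1 shares 23.1% of its 50-base stretches with other genes, and the pi-class Gstp1, abundant at 139 ± 12.1 and 141 ± 6.70, shares 62.3% with Gstp2. Gstm5 (mu class, 57.7 ± 10.1 and 56.6 ± 2.73) and the membrane-bound Mgst1 (17.1 ± 6.67 and 15.3 ± 1.67) differed by 0.01 and 0.08 on the log2 scale. Gsto1, the omega-class enzyme with thiol transferase activity, stood at 98.0 ± 16.6 and 77.0 ± 6.39, a log2 difference of 0.33 with an adjusted p of 0.350, or 0.115 with the block.

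**Figure D3:**
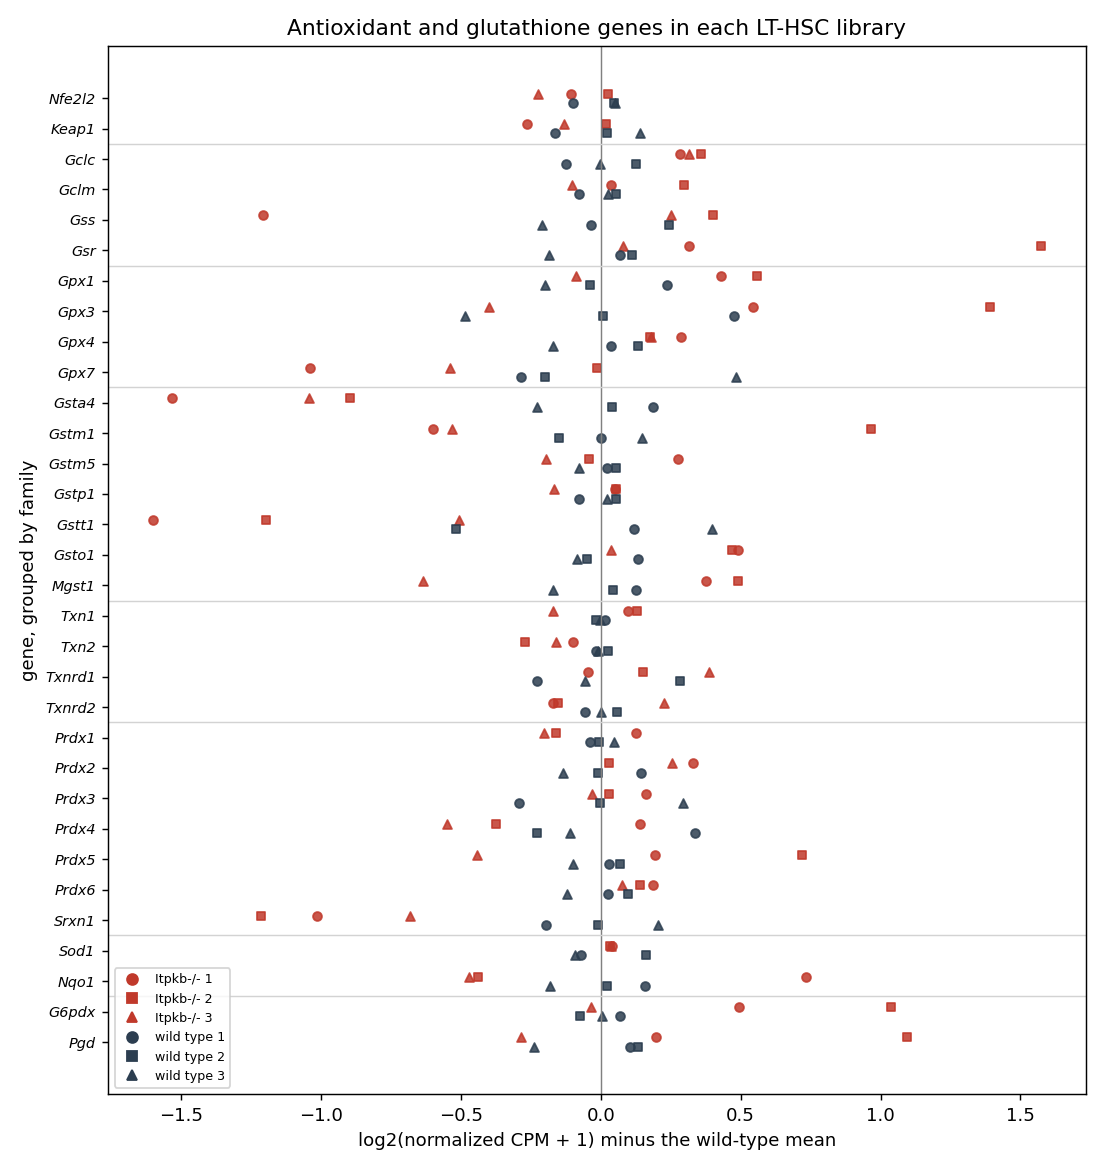
Level of each of the 32 antioxidant genes in each library, as log2(normalized CPM + 1) minus the wild-type mean, grouped by function; circles, squares and triangles mark replicates 1, 2 and 3. Itpkb-/- replicate 2 was the highest of the 6 libraries in 12 of the 32 genes, among them Gsr, Gstm1, G6pdx and Pgd. The share over all tested genes was not counted.

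None of the 4 genes of the thioredoxin system was called by limma, with or without the block. Cytosolic thioredoxin, Txn1, stood at 487 ± 54.0 normalized CPM for Itpkb-/- and 478 ± 5.45 in wild-type libraries (SD, n = 3 each), a log2 difference of 0.02 with an interval of -0.25 to 0.29. Mitochondrial thioredoxin, Txn2, was lower in each Itpkb-/- library, at 71.7, 63.4 and 68.5, than in any wild-type library, at 75.8, 78.2 and 76.3. Its difference was small, -0.18 on the log2 scale, and did not pass the test (adjusted p = 0.584, or 0.443 with the block). The reductases that recharge thioredoxin, Txnrd1 in the cytosol (93.3 ± 14.1 and 83.5 ± 15.6) and Txnrd2 in mitochondria (11.0 ± 1.94 and 11.2 ± 0.482), differed by 0.16 and -0.03.

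None of the 6 peroxiredoxins, the peroxidases that depend on thioredoxin or glutathione, was called. Their log2 differences ran from -0.26 in Prdx4, the enzyme of the endoplasmic reticulum, to 0.21 in Prdx2, which is cytosolic. Prdx1 and Prdx6, both abundant in the cytosol, stood at 355 ± 45.2 and 324 ± 12.5 in Itpkb-/- and at 373 ± 11.2 and 296 ± 22.6 in wild-type libraries. Mitochondrial Prdx3 differed by 0.05 and Prdx5 by 0.16. Prdx5 shares 29.7% of its 50-base stretches with Trmt112 and its value is therefore uncertain, as is that of Prdx2, with 23.8% shared with other genes. Smaller shares, between 7.11% and 14.4%, were found for Gss, Keap1, G6pdx, Prdx1 and Gstm5. Sod1, the cytosolic superoxide dismutase, was measured at 881 ± 1.63 in Itpkb-/- and 862 ± 86.4 in wild-type libraries, a log2 difference of 0.04 with an interval of -0.23 to 0.30, and shares 23.1% of its stretches with Gm8566. Nqo1, a quinone reductase and a classical Nrf2 target, was low at 5.77 to 14.6 over the 6 libraries, highest in Itpkb-/- replicate 1 and lowest in Itpkb-/- replicate 3, with a difference of -0.06.

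G6pdx, glucose-6-phosphate dehydrogenase, and Pgd, phosphogluconate dehydrogenase, are the NADPH-producing steps of the pentose phosphate pathway. G6pdx was measured at 131, 192 and 90.7 in Itpkb-/- and 97.5, 88.2 and 93.3 in wild-type libraries. Itpkb-/- replicates 1 and 2 lay above all wild-type libraries and replicate 3 among them. The log2 difference was 0.50 (SE 0.22, adjusted p = 0.316), 0.23 without Itpkb-/- replicate 2, and 0.77 without Itpkb-/- replicate 3 (adjusted p = 0.0682). With the block the adjusted p was 0.0760. Pgd stood at 105, 196 and 74.7 in Itpkb-/- against 98.2, 100.1 and 77.3 in wild-type libraries, and only Itpkb-/- replicate 2 lay clearly above the wild type. Its log2 difference of 0.34 (adjusted p = 0.627) became -0.04 without that library.

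Gsr, Gstm1, G6pdx and Pgd, set side by side after their values were seen, were all highest in Itpkb-/- replicate 2. That is the library with the granulocyte and monocyte sum of 19901, against 7405 and 1313 in the other Itpkb-/- libraries, and within it Mpo, the myeloperoxidase of granulocyte precursors, stood at 8728 normalized CPM against 588 and 88.5. The part of those cells or transcripts in the antioxidant values was not tested. Over all 32 genes, the ratio of SD to mean was larger among Itpkb-/- than among wild-type libraries in 25. The share over all tested genes was not counted, so this is not shown to be particular to the list. Over the whole table, reads of Itpkb-/- library pairs also differed more than those of wild-type pairs. Their chi-square per degree of freedom was 21.4 to 25.2 against 5.93 to 11.5. That measure grows with read depth and weighs high genes most, so it does not show that most genes varied more. Without Itpkb-/- replicate 2 the median log2 difference of the 32 genes was -0.04 with 15 positive, against 0.03 with 18 positive when it was kept.

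**Figure D4:**
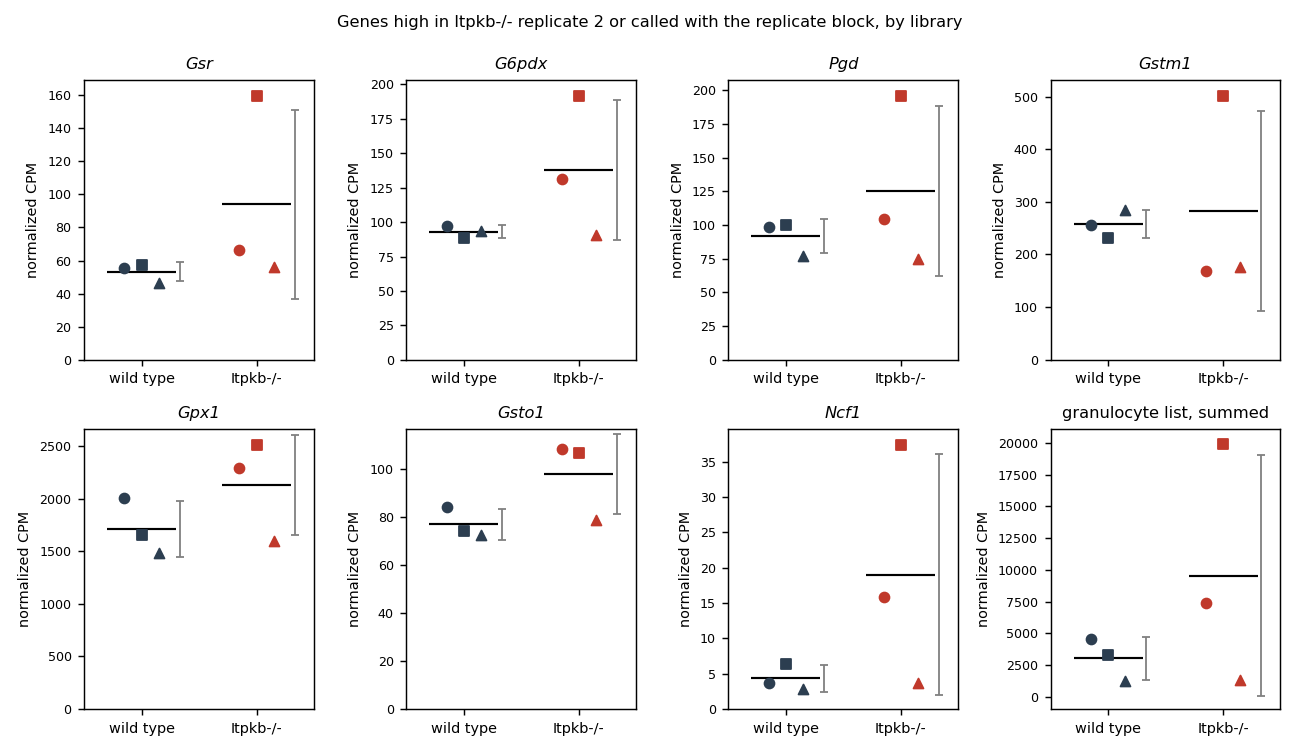
Normalized CPM of Gsr, G6pdx, Pgd and Gstm1, of Gpx1 and Gsto1, which were called with the replicate block, and of the NADPH oxidase subunit Ncf1 in each library, beside the summed normalized CPM of the granulocyte and monocyte markers; circles, squares and triangles mark replicates 1, 2 and 3, lines the mean and grey bars the SD. Itpkb-/- replicate 2 is the highest point in every panel except that of Gsto1, with 159.7 for Gsr and 19901 for the marker sum.

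Set per kilobase of the longest coding transcript, so that genes can be compared, the antioxidant genes spanned a wide range in wild-type LT-HSC. Gpx1 led with 1597 normalized CPM per kilobase (lowest to highest library 1379 to 1869) and Sod1 followed with 1344 (1257 to 1499), so these neighbours were close to each other. Txn1 came next with 455, then Gstm1 with 199.7, Gstp1 with 172 and Prdx1 with 163. The order depends on the length taken: per kilobase of all exons joined, Gpx1 still ranked 1, but Txn1 ranked 2 and Sod1 3. At the low end stood Srxn1 with 3.83 and Gpx3 with 1.47. Gsta4 ranked 19 among the 32 in wild-type and 25 in Itpkb-/- cells, with 25.3 and 10.9 per kilobase, and Gstt1 ranked 22 and 27, with 19.2 and 8.64. Srxn1 went from 3.83 to 1.79.

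**Figure D5:**
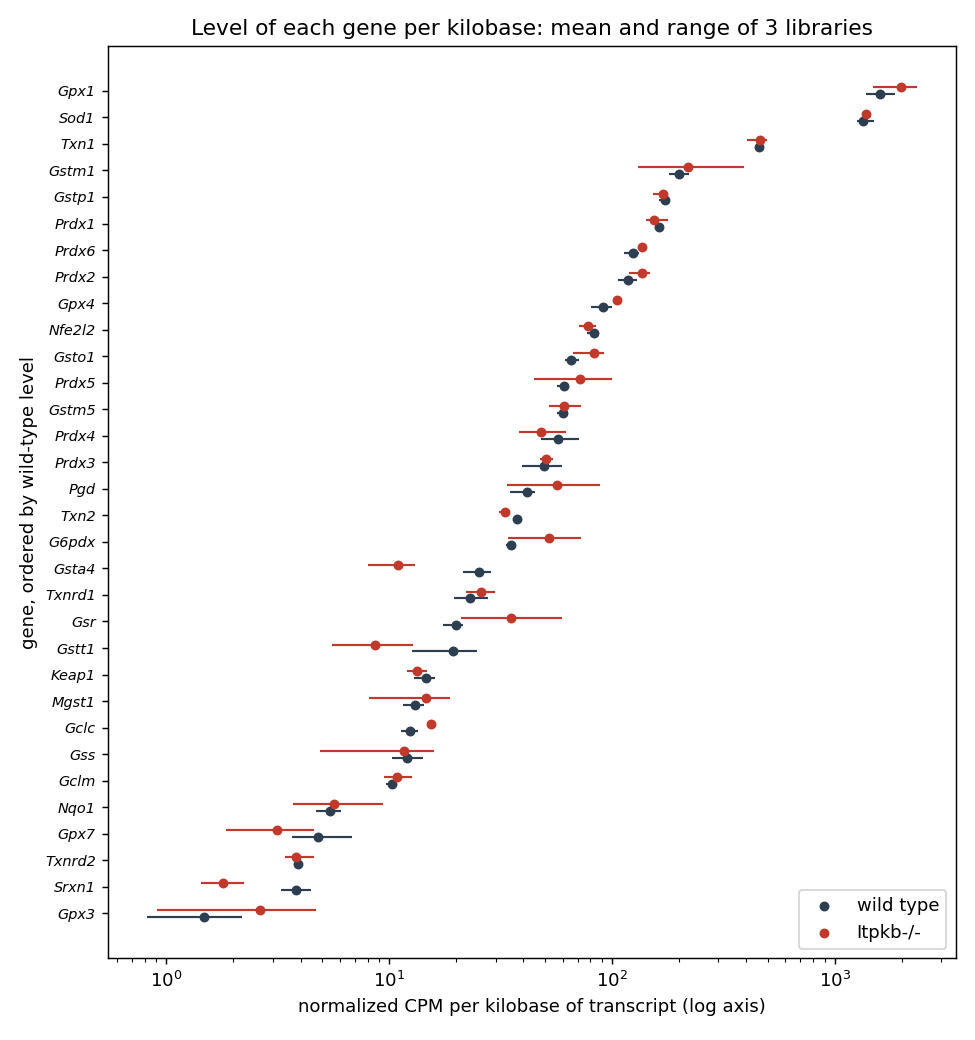
Level of each antioxidant gene per kilobase of its longest coding transcript, on a log axis of normalized CPM per kilobase, with the mean as a point and the range of the 3 libraries of each genotype as a line. Gpx1 (1597) and Sod1 (1344) lie highest in wild-type LT-HSC, and Srxn1 (3.83) and Gpx3 (1.47) lie lowest.

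Beyond the 32 genes, 116 other genes of the same pathways were in the table, of which 96 were tested. Of these, limma without the block called 1 higher, Mthfd2, and 8 lower, Txnip, Msrb2, Sepp1, Hmox1, Bach2, Osgin1, Epas1 and Me1, beside the background of 2.27% and 3.24%. The block called 6 of the 96 higher and 16 lower, beside 9.15% and 8.97% of all tested genes, and edgeR called 1 higher and 8 lower, beside 2.45% and 3.58%. The median log2 difference of the 96 was -0.03, and 6 and 20 of them did not overlap, higher and lower, beside 10.0% and 11.3% of all tested genes. The count of 9 called genes became 2 without Itpkb-/- replicate 2, then 1, 2 and 0 when wild-type replicate 1, 2 or 3 was the one left out.

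Hmox1, haem oxygenase 1, which breaks down haem and is induced by Nrf2, showed the largest fall of these genes on the log2(normalized CPM + 1) scale. That scale understates the falls of low genes, and as a ratio of means Epas1, given below, fell further. Hmox1 stood at 1.74, 2.64 and 1.70 among Itpkb-/- libraries against 7.96, 10.0 and 10.8 among wild-type libraries. The genotypes were far apart, with means of 2.03 ± 0.531 and 9.59 ± 1.47 (SD, n = 3 each) and a log2 difference of -1.81 (SE 0.31, adjusted p = 0.0224 by limma). The adjusted p of Hmox1 was 0.152 when wild-type replicate 3 was left out, which was the only one of 16 alternatives in which its call was lost. Of the 20 tested genes of the wider Nrf2 network, limma called 3 lower and none higher, beside 3.24% of all tested genes lower and 2.27% higher. Hmox1 is not in this list, which mixes regulators and partners of Nrf2 and hypoxia-inducible factors with Nrf2 targets. The count is therefore no measure of Nrf2 activity. A positive difference was found in 4 of the 20, beside 50.2% of all tested genes, and their median was -0.18. Bach2, a transcriptional repressor, was measured at 23.1, 14.9 and 35.0 in Itpkb-/- against 44.8, 37.7 and 52.9 in wild-type libraries, without overlap (log2 difference -0.93, adjusted p = 0.134). Its call was lost without Itpkb-/- replicate 1 (0.155), Itpkb-/- replicate 2 (0.316), wild-type replicate 1 (0.279), wild-type replicate 2 (0.198) or wild-type replicate 3 (0.409). Osgin1, an oxidative stress induced growth inhibitor, stood at 1.31, 3.73 and 6.03 against 13.9, 8.37 and 10.2, again without overlap (log2 difference -1.45, adjusted p = 0.117), and its call was lost without Itpkb-/- replicate 1 (0.167), Itpkb-/- replicate 2 (0.205), wild-type replicate 1 (0.297), wild-type replicate 2 (0.187) or wild-type replicate 3 (0.328). Epas1, which encodes the hypoxia-inducible factor HIF-2α, was near the detection floor in Itpkb-/- cells, at 0.871, 0.155 and 0.917 with replicate 2 below it, against 4.23, 2.99 and 5.40 in wild-type cells. Its log2 difference was -1.67 (adjusted p = 0.0636), and the call was lost without Itpkb-/- replicate 2 (0.189), wild-type replicate 1 (0.165) or wild-type replicate 3 (0.275).

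Of the 24 other antioxidant and thiol enzymes tested, 4 fell and none rose by limma, beside 3.24% of all tested genes lower and 2.27% higher, and with the block 1 was higher and 8 lower, beside 9.15% and 8.97%. Besides Hmox1 these were Txnip, Msrb2 and Sepp1, none of which overlapped between genotypes. Txnip, the thioredoxin-binding inhibitor, was measured at 674, 405 and 664 in Itpkb-/- against 1324, 831 and 893 in wild-type libraries (log2 difference -0.81, adjusted p = 0.107), a call lost without Itpkb-/- replicate 2 (0.260), wild-type replicate 1 (0.289), wild-type replicate 2 (0.155) or wild-type replicate 3 (0.268). Txnip is known to lower the activity of thioredoxin and is not itself an enzyme that removes oxidants. Msrb2, a mitochondrial methionine sulfoxide reductase, stood at 22.4, 17.7 and 22.9 against 36.8, 35.1 and 31.1 (log2 difference -0.69, adjusted p = 0.116), a call lost without Itpkb-/- replicate 2 (0.310), wild-type replicate 1 (0.276), wild-type replicate 2 (0.244) or wild-type replicate 3 (0.281). Sepp1, selenoprotein P, which carries selenium, stood at 189, 118 and 148 against 276, 211 and 235 (log2 difference -0.68, adjusted p = 0.0942), a call lost without Itpkb-/- replicate 2 (0.236), wild-type replicate 1 (0.264), wild-type replicate 2 (0.151) or wild-type replicate 3 (0.291).

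The 28 other glutathione enzymes gave 0 calls in either direction by limma, edgeR and DESeq2, with 0 higher and 3 lower at an unadjusted limma p under 0.05, beside 7.13% and 8.34% of all tested genes. With the block 1 was higher and 2 lower, beside 9.15% and 8.97%. The smallest p among them was that of Gstk1, a mitochondrial and peroxisomal transferase, at 19.8, 15.7 and 19.4 in Itpkb-/- and 25.6, 33.6 and 26.6 in wild-type libraries, with an adjusted p of 0.179, or 0.0873 with the block. Among 16 other genes of NADPH supply, Mthfd2, a mitochondrial enzyme of folate metabolism, rose from 9.20, 8.82 and 7.26 in wild-type to 14.6, 14.8 and 30.7 in Itpkb-/- libraries, a log2 difference of 1.08 (adjusted p = 0.120), with the call lost without Itpkb-/- replicate 2 (0.154), Itpkb-/- replicate 3 (0.259), wild-type replicate 1 (0.212), wild-type replicate 2 (0.214) or wild-type replicate 3 (0.360). Me1, cytosolic malic enzyme, fell from 5.22, 3.89 and 3.91 to 0.218, 0.622 and 2.75, with 1 Itpkb-/- library below the 3-read floor. It had an adjusted p of 0.148 by limma and 0.248 by edgeR, and the call was lost in 11 of 15 alternatives, among them those without Itpkb-/- replicate 1 (0.243), Itpkb-/- replicate 2 (0.340), wild-type replicate 1 (0.328), wild-type replicate 2 (0.248) or wild-type replicate 3 (0.354). The 8 tested subunits of NADPH oxidase, the phagocyte enzyme that makes superoxide, gave 0 limma calls, 0 edgeR calls, 1 higher gene by DESeq2 and 1 higher gene at an unadjusted limma p under 0.05, beside 7.13% of all tested genes. With the block 2, Cybb and Ncf1, were higher, beside 9.15%. Ncf1 had the smallest p, at 15.9, 37.4 and 3.67 in Itpkb-/- and 3.73, 6.43 and 2.79 in wild-type libraries, with an adjusted p of 0.271, or 0.0208 with the block. Its order over the Itpkb-/- libraries was that of the granulocyte and monocyte sum. Over the wild-type libraries the orders differed, since that sum was highest in replicate 1 (4551) and Ncf1 in replicate 2. Any link between them was not tested.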

How the data were processed

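RNA-seq libraries of sorted LT-HSC, 3 per genotype, were made with the NuGEN Ovation RNA-Seq System V2, which does not mark strand, from 1 pool of 4 mice each. Reads were processed with CASAVA 1.8.2, cutadapt, TopHat2 2.0.8b, Partek and edgeR on mm10, per the submitters' processing notes, while the labels' design text names another TopHat version. The deposited table holds a normalized signal per gene, CPM in which the authors' read counts were divided by 1 factor per library. All values, divided by the value of 1 read in their library, gave whole reads within 0.01 read, and the table's factors matched recomputed TMM factors. Antisense and overlapping genes cannot be told apart without strand.

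Values were analysed as log2(normalized CPM + 1) with limma 3.58.1 (R 4.3.3), moderated with a mean-variance trend, for genes at 1 or more in at least 3 libraries, with Benjamini-Hochberg adjustment over all 12008 genes and calls made where that p did not exceed 0.15, the limit of the study. Fold changes of low genes are understated on this scale. The recovered reads were also tested with edgeR 4.0.16 (quasi-likelihood) and DESeq2 1.42.0 (Wald), and the limma fit was run on simulated counts with known changes. Those counts held no replicate pairs and no outlying library, so that run does not measure how reliable the calls are in these data. Same-numbered libraries of the genotypes correlated at 0.296, 0.268 and 0.284 in their deviations from the genotype means, so the replicate numbers in the labels were taken as pairs and a blocked fit is given where it changes a call. The labels do not state such pairs, which were inferred from the same values that the fit tests. Deviations from a genotype mean depend on each other, so these correlations are not independent and do not settle the pairing. No libraries agreed within sampling noise. The labels call the libraries replicates, each from a pool of mice. All 32 genes are named, with values per library for those called, not overlapping or differing by at least 0.5, and for the other pathway lists the genes called and the smallest p of each; Gstm1 and Pgd were given per library after their values were seen. The members and lists were chosen with earlier results of these data known. Positions and transcript lengths are from GENCODE M21 (mm10), promoters from RefSeq (GRCm38.p6).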

Additional observations from a re-analysis of the deposited data

How the results depend on the processing

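Over all tested genes, 661 were called, against 2176 with the replicate block, 139 with both libraries numbered 2 left out, and 74 to 837 with 1 library left out. The block tests the same libraries with the shared part of each pair removed. Of the 32 antioxidant genes 3 were called, against 7 with the replicate block, 1 with no filter on low values, 0 with both libraries numbered 2 left out, and 0 to 4 with 1 library left out. Of the other pathway genes 9 were called, against 22 with the replicate block, 4 with no filter, 1 with both libraries numbered 2 left out, and 0 to 11 with 1 library left out. Beyond those given beside the results, the block changed no call among the named genes. Reversals touched only genes that were not called: with both libraries numbered 2 left out, Gclm (-0.0066), Mgst1 (-0.11), Txn1 (-0.045), Prdx5 (-0.089), Txnrd2 (0.056) and Nqo1 (0.14); with edgeR, Gstm1 (0.13) and Nqo1 (0.034); with DESeq2, Gstm1 (0.14) and Nqo1 (0.048); and scaled by total reads alone, Gstm5 (-0.022) and Txn1 (-0.017). With 1 library left out the log2 difference ran for Gclm from -0.033 to 0.17, Gss from -0.48 to 0.32, Gstm1 from -0.57 to 0.22, Gstm5 from -0.12 to 0.12, Gstp1 from -0.060 to 0.052, Mgst1 from -0.13 to 0.43, Txn1 from -0.037 to 0.11, Txnrd2 from -0.16 to 0.037, Prdx3 from -0.093 to 0.20, Prdx5 from -0.12 to 0.46, Sod1 from -0.0092 to 0.12, Nqo1 from -0.45 to 0.15 and Pgd from -0.044 to 0.65. The cause was not tested in any of these. Values under about 10 normalized CPM rest on few reads, as in Srxn1, Gpx3, Gpx7 and Nqo1, which limits what can be read from their differences. A p that misses the limit does not show that a gene was equal in the genotypes.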
